A study of Mus musculus with 9 samples.

Results

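The genes described are those of the mitochondrial ribosomal proteins, taken as every row of the deposited expression table whose symbol begins with Mrpl or Mrps. The rule found 82 of the 10716 rows. Of these, 78 are protein-coding genes and 4 are processed pseudogenes (Mrpl27-ps, Mrpl23-ps1, Mrpl48-ps and Mrps36-ps2). By their products, 51 of the 78 belong to the large subunit and 26 to the small subunit. Mrps36 belongs to neither, since its protein is now known as a component of the 2-oxoglutarate dehydrogenase complex.

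RNA was sequenced from C2C12 myotubes, the fused muscle cells formed by an immortalised mouse myoblast line. There were 3 groups of 3 libraries: dexamethasone at 50 µM with THSG at 10 µM, dexamethasone at 50 µM alone, and vehicle, each for 24 h. Dexamethasone, a glucocorticoid drug, serves as a model of wasting in cultured muscle cells, and the labels give THSG as an abbreviation only. No group had THSG alone, and nothing in the labels says whether the 3 libraries of a group came from separate cultures, so p-values measure the spread between libraries, which may be technical.

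The mitochondrial ribosome sits in the mitochondrial matrix and translates the few mRNAs of mitochondrial DNA, all of which encode subunits of the respiratory chain and ATP synthase. Its RNAs are transcribed from mitochondrial DNA, while all its proteins are encoded in the nucleus, made in the cytosol and imported. The small subunit reads the mRNA, and the large subunit forms the peptide bond. Some of the proteins have counterparts in bacterial ribosomes (46 of the 77 subunit genes here). The other 31 are classed as special to mitochondrial ribosomes. Those 31 include Mrps18a and Mrps18b, although their paralog Mrps18c is classed as a bacterial homolog.

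Markers of the myotube were present, 10 of 10, and their summed level per library was 7677 to 7850 FPKM with dexamethasone plus THSG, 7121 to 7744 with dexamethasone and 6802 to 7379 with vehicle. Of 8 markers of proliferating myoblasts, 7 were in the table and Mki67 was not under that symbol. Their sum was 35.8 to 39.3 FPKM with dexamethasone plus THSG, 33.2 to 39.3 with dexamethasone and 55.6 to 63.9 with vehicle. With dexamethasone against vehicle, 6 of these markers were called lower and 1, Myf5, higher. Of the myotube markers, 6 were called higher and 1, Des, lower. The Z-disc gene Actn2 stood at 0.91 and the creatine kinase gene Ckm at 0.74 on the log2 scale (adjusted p = 2.16e-06 and 2.39e-05, limma). Of 7 immune, endothelial and epithelial markers, 0 were in the table. Protein-coding mRNAs of mitochondrial DNA took 13.9% of all FPKM in dexamethasone library 3 and 10.5 to 11.9% in the other 8 libraries.

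Promoter sequences are shown for the members whose levels are described most closely below: the 2 large-subunit genes with the largest falls under dexamethasone (Mrpl52 and Mrpl34), the stalk gene Mrpl12, the only member called higher (Mrpl1), and Mrps12, which shares its promoter region with another mitochondrial gene. Each is the RefSeq window of 250 bases before to 50 bases after the annotated start, 5′ to 3′ on the gene's own strand, build GRCm38.p6. Capitals mark matches, on either strand, to 3 motifs known from housekeeping and mitochondrial promoters: GCGC on each side of 2 bases of any kind for NRF1, CCGGAAG for ETS factors such as GABP, and AAGATGGC for YY1. The windows are chr14:54426659-54426958 (plus strand) for Mrpl52, chr8:71464676-71464975 (plus) for Mrpl34, chr11:120484387-120484686 (plus) for Mrpl12, chr5:96209865-96210164 (plus) for Mrpl1 and chr7:28741772-28742071 (minus) for Mrps12.
Mrpl52: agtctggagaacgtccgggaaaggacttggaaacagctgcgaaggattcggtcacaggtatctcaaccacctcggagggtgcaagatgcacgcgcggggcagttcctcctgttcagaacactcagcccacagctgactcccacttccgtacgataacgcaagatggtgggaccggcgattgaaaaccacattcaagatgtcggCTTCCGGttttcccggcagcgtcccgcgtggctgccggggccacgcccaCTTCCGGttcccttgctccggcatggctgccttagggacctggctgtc
Mrpl34: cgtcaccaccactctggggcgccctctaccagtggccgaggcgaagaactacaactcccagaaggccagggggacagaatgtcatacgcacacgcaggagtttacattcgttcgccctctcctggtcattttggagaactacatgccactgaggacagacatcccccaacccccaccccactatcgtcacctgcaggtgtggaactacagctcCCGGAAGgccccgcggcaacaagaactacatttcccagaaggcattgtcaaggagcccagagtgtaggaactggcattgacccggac
Mrpl12: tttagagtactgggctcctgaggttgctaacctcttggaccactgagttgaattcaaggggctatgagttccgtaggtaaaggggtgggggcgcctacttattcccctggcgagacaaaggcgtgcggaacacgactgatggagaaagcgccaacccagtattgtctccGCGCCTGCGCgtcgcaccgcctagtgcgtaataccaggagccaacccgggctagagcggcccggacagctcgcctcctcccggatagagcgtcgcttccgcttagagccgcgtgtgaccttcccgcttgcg
Mrpl1: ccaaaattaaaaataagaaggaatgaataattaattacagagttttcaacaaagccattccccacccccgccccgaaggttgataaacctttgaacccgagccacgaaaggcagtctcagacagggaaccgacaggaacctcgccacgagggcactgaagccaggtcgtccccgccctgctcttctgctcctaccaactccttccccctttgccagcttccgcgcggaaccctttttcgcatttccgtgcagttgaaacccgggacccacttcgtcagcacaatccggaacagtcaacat
Mrps12: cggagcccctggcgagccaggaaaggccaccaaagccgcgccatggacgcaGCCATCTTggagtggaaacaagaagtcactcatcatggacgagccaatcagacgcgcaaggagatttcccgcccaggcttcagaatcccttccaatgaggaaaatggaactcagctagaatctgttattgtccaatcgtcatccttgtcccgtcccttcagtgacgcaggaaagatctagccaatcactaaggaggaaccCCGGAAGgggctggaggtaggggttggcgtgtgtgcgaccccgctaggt
Relative to the start, the Mrpl52 window held the ETS letters at -47 and +3, and that of Mrpl34 held them at -37. The Mrpl12 window held the NRF1 letters at -81. The Mrps12 window held the YY1 letters at -199 and the ETS letters at +2. None of the 3 motifs was matched in the Mrpl1 window.

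RefSeq windows were found for 69 of the 78 protein-coding members, 75 windows in all because some genes have more than 1 start. Of these windows, 34.7% held the ETS letters, against 18.5% of the 10593 windows of rows in the table and 8.86% of all 32851 windows. The YY1 letters were in 16% of member windows, against 4.76% of windows of the table's rows and 2.75% of all. The NRF1 letters were in 18.7%, against 13.6% and 6.23%. At least 1 of the 3 motifs was found in 44 of the 75 member windows (58.7%), against 32.4% of windows of the table's rows. No member window held matches of these motifs that overlapped each other. The glucocorticoid response element, searched as GNACA and TGTNC with 3 bases of any kind between, was in 0 of 75 member windows and in 0.321% of windows of the table's rows, and TATAAA was in 6.67% and 7.07%. Median GC content was 58.7% in member windows and 61.3% in windows of the table's rows, with a median of 21 CpG in both. A match describes letters and is not a binding site.

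Many members lie head to head with another gene. In the GENCODE annotation, 23 of the 78 protein-coding members (29.5%) had a protein-coding neighbour on the opposite strand with its start within 1000 bp or overlapping by up to 300 bp, against 1443 of 10261 protein-coding rows (14.1%). The Mrps12 start lies 172 bp from that of Sars2, the mitochondrial seryl-tRNA synthetase. Mrpl36 overlaps the start of Ndufs6, a subunit of respiratory complex I, by 29 bp. Mrpl49 starts 59 bp from Fau, which encodes a cytosolic ribosomal protein fused to a ubiquitin-like one.

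The 78 protein-coding members were expressed at a median of 17.5 FPKM over the 9 libraries (quartiles 10.7 and 28.5 FPKM), against 12.4 FPKM for all rows. FPKM is a fragment count scaled to transcript length and library size. Their levels spanned 38.8-fold, from 2.81 FPKM for Mrps35 to 109 FPKM for Mrpl33, although each product is present once in the assembled ribosome with few exceptions such as Mrpl12. The order of members was alike in all groups: the correlation of log2 levels across the 78 genes was 0.992 between dexamethasone plus THSG and vehicle and 0.99 between dexamethasone and vehicle. Log2 level and log2 transcript length had a correlation of -0.724 across these 78 genes, which share libraries and a unit that divides by length. Median transcript length was 1327.5 bp in members and 3111.5 bp in all rows with a length, and median GC content was 50.0% and 50.1%.

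At the top, Mrpl33, homolog of a small bacterial large-subunit protein, had 125, 99.4 and 108 FPKM with dexamethasone plus THSG, 96.5, 106 and 103 with dexamethasone, and 119, 108 and 116 with vehicle. Its exons share 261 same-strand bases with Gm43809 in the annotation, so its reads could be split. Mrps21, a bacterial homolog in the small subunit, had 100.2, 98.7 and 102 FPKM with dexamethasone plus THSG, 81.7, 92.4 and 109 with dexamethasone, and 112, 116 and 102 with vehicle. Neither passed the test for dexamethasone against vehicle (adjusted p = 0.125 and 0.0626, limma), though Mrps21 did without dexamethasone library 3 (-0.34, adjusted p = 0.00312) or without vehicle library 3 (-0.28, adjusted p = 0.046). At the bottom, Mrps35, a small-subunit protein special to mitochondria, had 3.51, 2.87 and 2.79 FPKM with dexamethasone plus THSG, 2.72, 2.56 and 2.41 with dexamethasone, and 2.69, 3.06 and 2.68 with vehicle. Mrpl35 had 2.74 to 3.07 FPKM with dexamethasone plus THSG, 2.98 to 3.50 with dexamethasone and 2.84 to 3.00 with vehicle, and Mrpl57 lay between 2.47 and 3.63 FPKM in all 9 libraries. Over all 9 libraries, the ranges of Mrps35, Mrpl35 and Mrpl57 overlapped, as did those of Mrpl33, Mrpl52 and Mrps21 at the top. Differences between neighbours in this order were not tested.

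**Figure D1:**
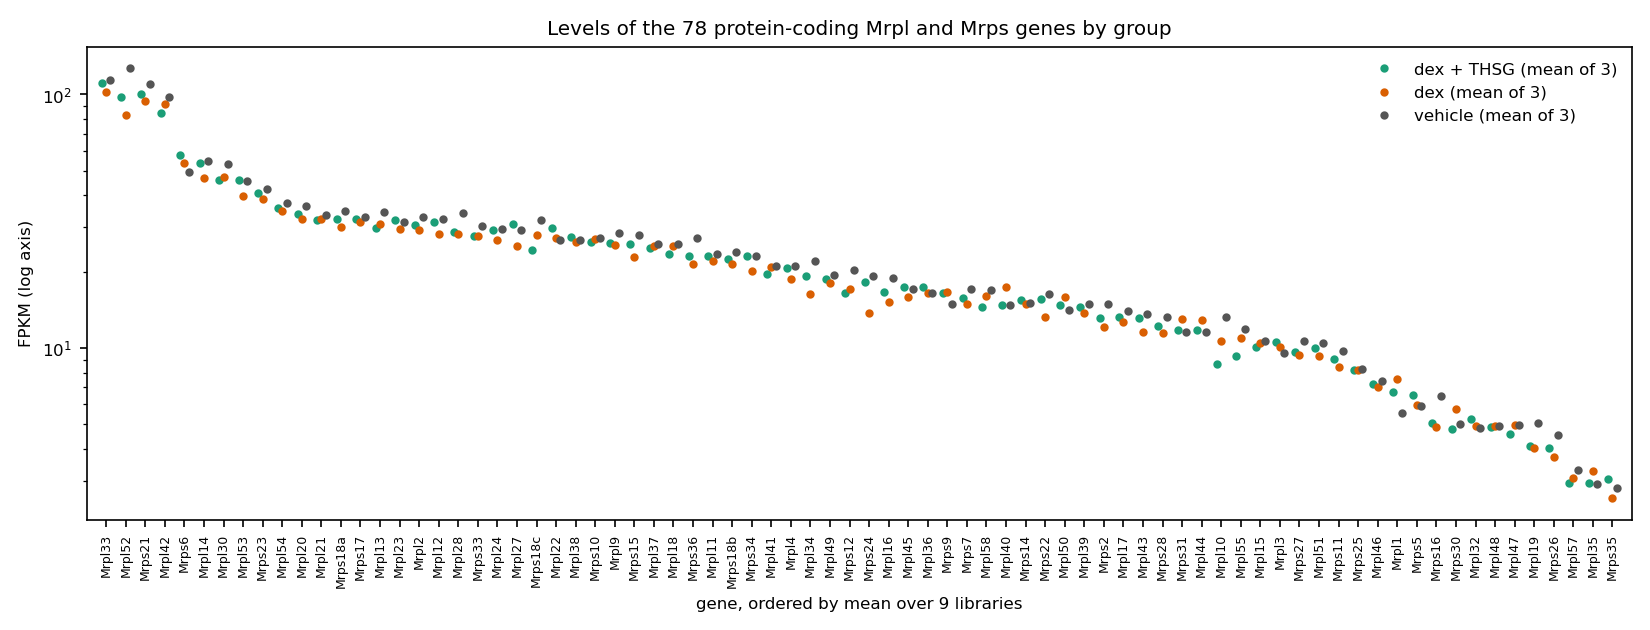
FPKM (log axis) of the 78 protein-coding members, ordered by their mean over 9 libraries, with the mean of 3 libraries for each group. Levels run from 2.81 to 109 FPKM, and the 3 groups keep close to one another along the whole order.

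Summed over the 78 protein-coding members, the libraries held 1899, 1778 and 1849 FPKM with dexamethasone plus THSG, 1755, 1794 and 1746 with dexamethasone, and 2097, 1940 and 1868 with vehicle. All 3 dexamethasone sums lay below all 3 vehicle sums, and vehicle library 1 was highest. As a share of all FPKM these were 0.453, 0.439 and 0.448% with dexamethasone plus THSG, 0.431, 0.442 and 0.426% with dexamethasone, and 0.497, 0.465 and 0.467% with vehicle. The median log2 deviation of the members from each gene's mean was 0.005, -0.043 and -0.008 with dexamethasone plus THSG, -0.034, -0.063 and -0.067 with dexamethasone, and 0.126, 0.062 and 0.009 with vehicle. The same median over all rows ran from -0.022 to 0.043.

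Vehicle library 1 stood apart in the short transcripts. Over the 26 shortest members (463 to 1056 bp), the median deviation was -0.099, -0.084 and -0.104 in the dexamethasone libraries, and 0.224, 0.022 and 0.025 in the vehicle libraries, with library 1 first. Over the 26 longest members (1962 to 7300 bp) it was 0.009 in vehicle library 1. Where leaving out this library ended a call of a named member, that is said beside the call.

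**Figure D2:**
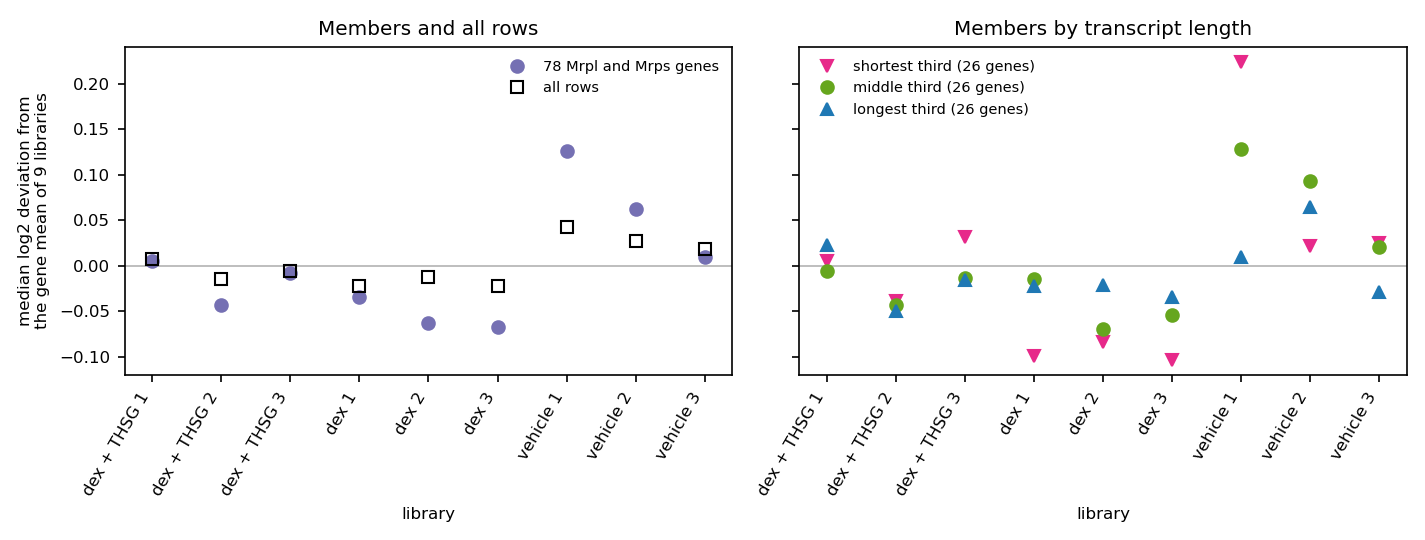
Median log2 deviation from each gene's mean over 9 libraries, per library, for members and all rows (left) and for members by transcript length (right). Vehicle library 1 is highest over the members, at 0.126, and over the 26 shortest, at 0.224.

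Dexamethasone against vehicle addressed what the glucocorticoid changed. Most members did not pass the test: of 82, 12 were called lower, 1 was called higher and 69 were not called, at a Benjamini-Hochberg adjusted p under 0.05 over all rows. The called share was 15.9% of members, against 33.6% of all rows; in the lower direction it was 20.9% of all rows and in the higher direction 12.7%. The share of members called was thus below the background. The median log2 fold change of the members was -0.12, against -0.05 for all rows, and 63 of 82 members (76.8%) lay below 0, against 59.1% of all rows. Dexamethasone and vehicle libraries did not overlap for 19 of 82 members lower and 4 of 82 higher, where 27.9% and 18% of all rows did so (45.9% together). In bulk RNA, fewer cells of a type and less RNA per cell cannot be told apart. Of the marker lists given above, most proliferation markers were lower and most myotube markers higher in the same libraries, and their part in the members' changes was not tested.

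The members' changes were small. All 78 protein-coding members had 95% intervals within a 2-fold change in either direction, as did 80 of all 82 members. The same held for 10045 of all 10716 rows, so it was common in the table. The median half-width of the intervals was 0.22 on the log2 scale over the 82 members and 0.185 over all rows. The split depended on scaling: with median-ratio scaling 8 members were called lower and 5 higher, and with quantile normalization 8 lower and 6 higher, while the median of all rows moved to -0.003 and 0.004. Without vehicle library 1, 6 members were called lower and 2 higher. Of those lower, 5 were among the 12, and the members' median was -0.06 against -0.05 for all rows. Called shares of all rows under these settings are not given here, so these counts have no background beside them.

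**Figure D3:**
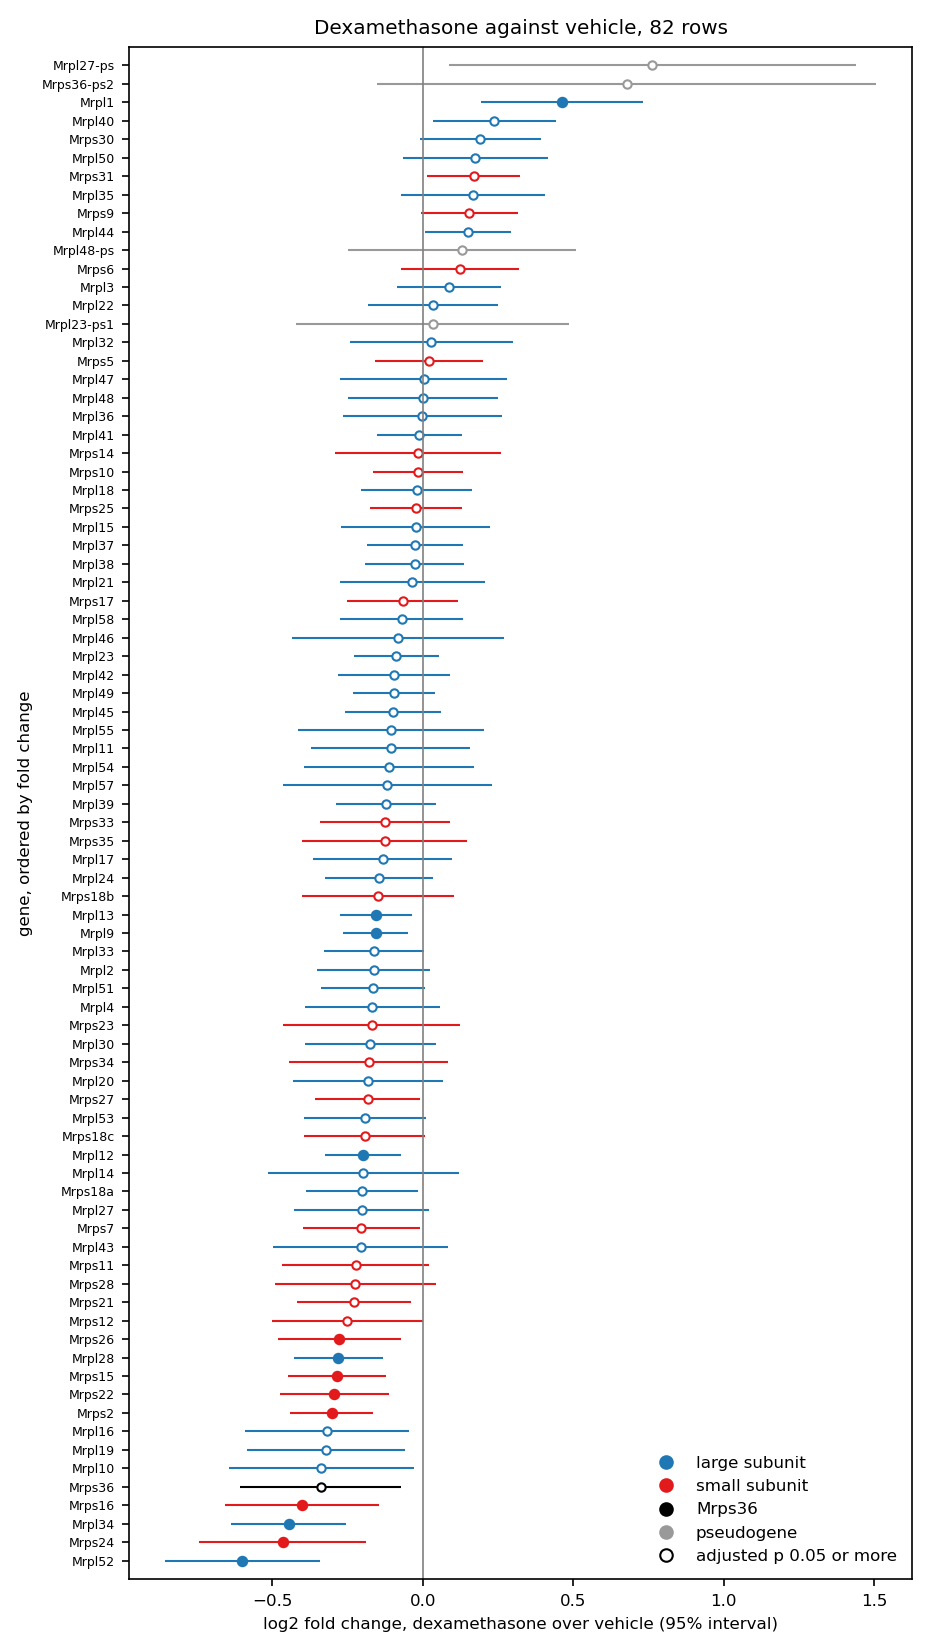
Log2 fold change of dexamethasone over vehicle with its 95% interval for the 82 rows, ordered by size, coloured by subunit and filled where the adjusted p is under 0.05. Most points lie left of 0, and the 13 filled points comprise 12 left and 1 right of it.

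In the large subunit, 6 of 51 members were called lower and 1 higher (13.7% called, against 33.6% of all rows), with a median log2 fold change of -0.11. Mrpl52, a subunit special to the mitochondrial ribosome and among the most abundant members, had 104, 90.6 and 98.0 FPKM with dexamethasone plus THSG, 85.8, 93.5 and 70.7 with dexamethasone, and 152, 115 and 114 with vehicle. All dexamethasone libraries lay below all vehicle libraries, and vehicle library 1 was well above the other 2. The change was -0.60 on the log2 scale (SE 0.117, adjusted p = 0.00207, limma), the largest fall among the members. Mrpl34, a small homolog of a bacterial large-subunit protein, had 16.4, 14.2 and 18.3 FPKM with dexamethasone and 22.7, 21.4 and 22.3 with vehicle. The groups did not overlap, and the log2 fold change was -0.45 (SE 0.0867, adjusted p = 0.00197, limma).

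Mrpl28, a bacterial homolog, averaged 28.1 ± 1.8 FPKM with dexamethasone and 34.2 ± 2.44 FPKM with vehicle (SD, n = 3 each), again without overlap. Its log2 fold change was -0.28 (SE 0.0671, adjusted p = 0.00719, limma). With the library trends over GC content and length removed it was -0.16 and still called. The stalk of the large subunit is the arm that recruits translation factors. Its protein Mrpl12, which is also known to bind the mitochondrial RNA polymerase, had 29.4, 31.4 and 33.3 FPKM with dexamethasone plus THSG, 27.8, 27.4 and 29.0 with dexamethasone, and 33.5, 32.3 and 30.8 with vehicle. The dexamethasone libraries lay below all others, and the log2 fold change against vehicle was -0.20 (SE 0.0573, adjusted p = 0.0199, limma). That call was lost without vehicle library 1 and in 7 other alternatives of 17.

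Of the other stalk proteins, Mrpl10, which anchors Mrpl12, stood at -0.34 on the log2 scale (adjusted p = 0.0864, limma), and Mrpl11 at the stalk base at -0.11 (adjusted p = 0.539, limma). Without dexamethasone library 2, which lay within the vehicle range, Mrpl10 stood at -0.52 and was called (adjusted p = 0.00299, limma). Mrpl9 and Mrpl13, both bacterial homologs, complete the large-subunit members called lower, each with a fall of 0.16 on the log2 scale (adjusted p = 0.0298 and 0.0443, limma). They are named because they were called, not by the naming rule, and each kept its call in 8 or fewer of 17 alternatives. Both calls were lost without vehicle library 1.

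Mrpl1, the protein of the mobile L1 stalk near the tRNA exit site, was the only member called higher. It had 6.82, 6.96 and 6.30 FPKM with dexamethasone plus THSG, 7.39, 8.08 and 7.27 with dexamethasone, and 4.38, 6.09 and 6.12 with vehicle. All dexamethasone libraries lay above all vehicle libraries, of which library 1 was lowest. The log2 fold change was 0.46 (SE 0.123, adjusted p = 0.0127, limma), and it was called in all 17 alternatives with a range of 0.31 to 0.54, lowest without vehicle library 1.

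In the small subunit, 6 of 26 members were called lower and 0 higher, with a median log2 fold change of -0.18. The called share was 23.1%, below the 33.6% of all rows in either direction and close to the 20.9% of all rows called lower. At an unadjusted p under 0.05, 20 of all 82 members were lower and 5 higher with dexamethasone, against 27.3% and 16.2% of all rows (43.5% in either direction). Mrps24, a homolog of the bacterial protein at the mRNA entry, had 18.8, 16.9 and 19.0 FPKM with dexamethasone plus THSG, 15.1, 12.7 and 13.5 with dexamethasone, and 22.9, 15.1 and 20.0 with vehicle. The highest dexamethasone library met the lowest vehicle library. The log2 fold change was -0.47 (SE 0.127, adjusted p = 0.0144, limma), and the call was lost without vehicle library 1 or dexamethasone library 2, with a highest adjusted p of 0.0569 over the 17 alternatives. In the annotation, Mrps24 shares 226 same-strand exon bases with Urgcp, so reads could be split between them, and Urgcp stood at -0.08 on the log2 scale (adjusted p = 0.415, limma).

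Mrps2, a bacterial homolog, had 12.5, 13.3 and 13.6 FPKM with dexamethasone plus THSG, 11.9 to 12.4 with dexamethasone, and 15.7, 14.5 and 14.6 with vehicle. The dexamethasone libraries were tightly grouped below the vehicle ones, and the log2 fold change was -0.30 (SE 0.0629, adjusted p = 0.00298, limma). Mrps15, a bacterial homolog that binds the small ribosomal RNA, had 22.2, 23.4 and 23.0 FPKM with dexamethasone and 31.3, 25.2 and 27.4 with vehicle. Its log2 fold change was -0.29 (SE 0.0737, adjusted p = 0.011, limma), and the groups did not overlap.

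Mrps22, special to the mitochondrial ribosome and mutated in a human mitochondrial disease, had 15.6, 15.2 and 16.1 FPKM with dexamethasone plus THSG, 14.7, 13.7 and 11.6 with dexamethasone, and 16.9, 16.3 and 15.6 with vehicle. Dexamethasone library 3 was lowest, and the log2 fold change was -0.29 (SE 0.0829, adjusted p = 0.0174, limma). Without that library, and without vehicle library 1, it was not called (highest adjusted p 0.06). Mrps16 fell by 0.40 and Mrps26 by 0.28 on the log2 scale (adjusted p = 0.0202 and 0.0385, limma). These names too come from the calls and not from the naming rule. The Mrps16 call was lost without vehicle library 1, dexamethasone library 1 or dexamethasone library 2 (adjusted p up to 0.0844), and Mrps26 kept its call in 5 of 16 alternatives and in 0 of the 6 that left out a library.

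**Figure D4:**
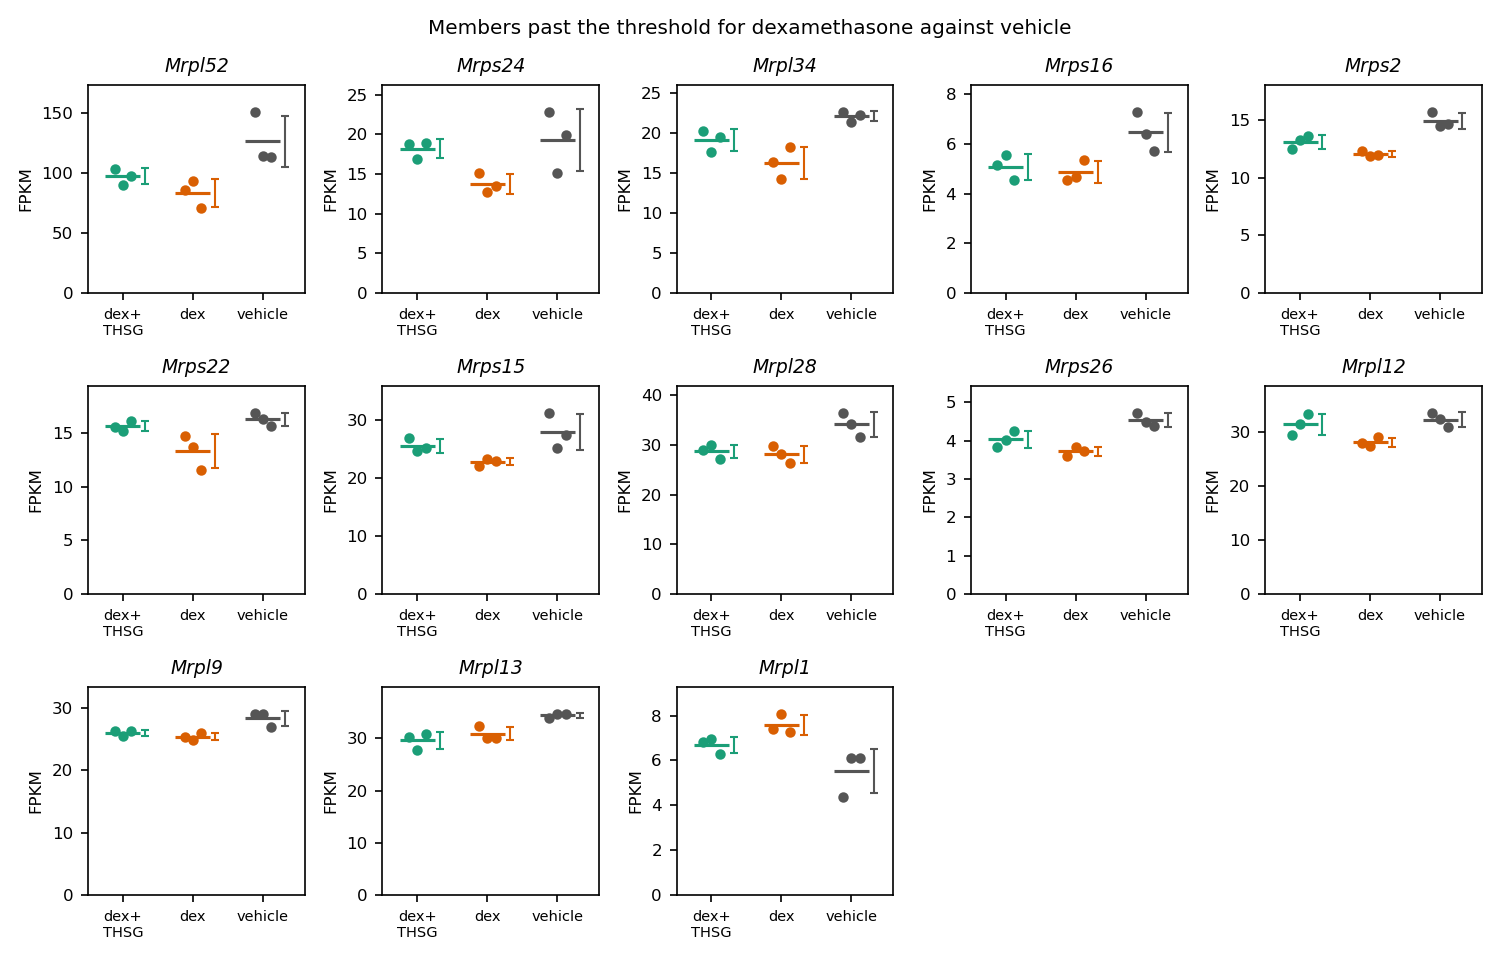
FPKM in each library (points) of members called for dexamethasone against vehicle, with the mean of each group as a line and its SD (n = 3) as a bar beside it. The dexamethasone libraries of Mrpl52, Mrpl34 and Mrps2 lie below their vehicle libraries, those of Mrpl1 lie above, and those of Mrps24 meet the vehicle range at 15.1 FPKM.

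Of the 15 members named for their roles, Mrpl12 and Mrps22 were called and the others were not. Mrps12, the decoding-centre protein, had 15.4, 20.1 and 13.9 FPKM with dexamethasone plus THSG, 16.5, 17.0 and 17.7 with dexamethasone, and 21.8, 18.4 and 20.9 with vehicle. Its dexamethasone and vehicle libraries did not overlap, but the log2 fold change of -0.25 did not pass (adjusted p = 0.117, limma). With only the 2 groups compared in the fit, Mrps12 was called (adjusted p = 0.0281, limma). Sars2 across the shared promoter region stood at -0.22 (adjusted p = 0.329, limma). Mrps7, which lines the tRNA exit of the small subunit, had one of -0.20 (adjusted p = 0.0976, limma), and Mrps34, special to mitochondria, one of -0.18 (adjusted p = 0.281, limma). In the annotation, Mrps34 shares 763 same-strand exon bases with Nme3 and 1309 opposite-strand ones with Mapk8ip3, so its reads could be split. Mrpl3, which reaches toward the peptidyl transferase centre, stood at 0.09 (adjusted p = 0.429, limma). Mrpl44, which has an RNase III-like fold, stood at 0.15 (adjusted p = 0.0997, limma) and was called higher at 0.20 with median-ratio scaling (adjusted p = 0.0417). Mrpl58, a peptidyl-tRNA hydrolase that rescues stalled ribosomes, stood at -0.07 (adjusted p = 0.604, limma). These p-values do not show that the levels were equal.

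The 3 Mrps18 paralogs occupy different places, Mrps18a in the large subunit and Mrps18b and Mrps18c in the small one. Mrps18a had 29.9, 30.9 and 29.0 FPKM with dexamethasone and 37.6, 37.1 and 29.3 with vehicle, with a log2 fold change of -0.20 (adjusted p = 0.0895, limma). Mrps18b had one of -0.15 and Mrps18c one of -0.19 (adjusted p = 0.356 and 0.129, limma). Without vehicle library 3, all 3 were called lower, Mrps18a at -0.32, Mrps18b at -0.30 and Mrps18c at -0.27 (adjusted p = 0.00194, 0.026 and 0.0444, limma). Mrps30, a large-subunit protein in spite of its name, stood at 0.19 (adjusted p = 0.13, limma) and was called at 0.28 with quantile normalization (adjusted p = 0.0359). Mrps36, outside the ribosome, had 27.2, 19.5 and 22.7 FPKM with dexamethasone plus THSG, 19.1, 23.4 and 22.0 with dexamethasone, and 23.7, 28.2 and 29.9 with vehicle, a log2 fold change of -0.34 against vehicle (adjusted p = 0.0515, limma), which passed without vehicle library 1 (-0.44, adjusted p = 0.0246) or without dexamethasone library 2 (-0.40, adjusted p = 0.0486).

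By origin, 9 of the 46 bacterial homologs were called lower and 1 higher with dexamethasone against vehicle, with a median of -0.16 (21.7% called, against 33.6% of all rows). Of the 31 subunits special to mitochondria, 3 were called lower and 0 higher, with a median of -0.11 (9.68% called). The difference between these classes was not tested. The 4 pseudogenes were not called, with log2 fold changes of 0.03 to 0.76, and reads of a processed pseudogene cannot be told with certainty from those of its parent gene.

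THSG with dexamethasone against dexamethasone alone addressed what THSG changed on that background. By limma, 0 of 82 members and 0% of all rows were called. At an unadjusted p under 0.05, 7 of 82 members were higher and 3 of 82 lower, where 5.05% and 2.2% of all rows were (7.25% together). The libraries did not overlap for 12 of 82 members higher and 5 of 82 lower, against 8.41% and 4.84% of all rows (13.3% together). The median log2 fold change of the members was 0.06, against 0.02 for all rows, and 36.6% of members lay below 0, against 43.8% of all rows. The largest protein-coding difference was that of Mrps24, at 0.40 (95% interval 0.12 to 0.68, adjusted p = 0.572, limma), where all 3 libraries with THSG lay above all 3 without. Mrps22 stood at 0.24 (adjusted p = 0.594) and Mrps30 at -0.26 (adjusted p = 0.594, limma). For Mrps30 the levels were 4.95, 4.74 and 4.67 FPKM with dexamethasone plus THSG and 5.50, 5.73 and 6.0 with dexamethasone, without overlap. This comparison and the one against vehicle share the dexamethasone libraries, so a low dexamethasone value gives a negative fold in one and a positive fold in the other.

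Dexamethasone plus THSG against vehicle had 7 members lower and 0 higher (8.54% of members, against 29.1% of all rows, 17% lower and 12.1% higher). They were 4 of the large subunit (Mrpl10, Mrpl13, Mrpl28 and Mrpl52) and 3 of the small (Mrps2, Mrps16 and Mrps18c). The members' median was -0.06 and that of all rows -0.04. Groups did not overlap for 13 of 82 members lower and 3 of 82 higher, against 25.2% and 17.9% of all rows (43.1% together). At an unadjusted p under 0.05, 14 of 82 members were lower and 3 of 82 higher, against 39.1% of all rows in either direction. Of the 82 members, 58 (70.7%) lay below 0, against 57.5% of all rows. Mrpl10 had 8.76, 9.30 and 7.81 FPKM with dexamethasone plus THSG, 9.25, 13.5 and 9.08 with dexamethasone, and 13.4, 11.9 and 14.4 with vehicle. Dexamethasone library 2 lay within the vehicle range and the libraries with THSG lay below it. The log2 fold change of dexamethasone plus THSG over vehicle was -0.61 (SE 0.14, adjusted p = 0.00606, limma), and that over dexamethasone was -0.28 (adjusted p = 0.705, limma).

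Mrps18c had 26.9, 23.2 and 23.0 FPKM with dexamethasone plus THSG, 27.9, 29.4 and 26.3 with dexamethasone, and 30.9, 36.7 and 28.5 with vehicle. Its log2 fold change over vehicle was -0.39 with dexamethasone plus THSG (SE 0.0915, adjusted p = 0.00741, limma). In the annotation it shares 250 same-strand exon bases with Gm43511. Mrpl52 stood at -0.37 and Mrpl28 at -0.25 (adjusted p = 0.0355 and 0.0158, limma), and Mrps2 at -0.19 (adjusted p = 0.0451, limma). Without vehicle library 1 these were -0.23, -0.20 and -0.15 and were not called (adjusted p = 0.123, 0.0638 and 0.15, limma), and neither was Mrps16. Mrps2 kept its call in 5 of 17 alternatives, Mrps16 in 8, Mrpl52 in 13 and Mrpl28 in 15. The count of members lower was 3 without vehicle library 1 and 4 without library 3 of dexamethasone plus THSG. Without vehicle library 1, 2 members were called higher.

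Exon sharing concerned 33 of the 78 protein-coding members, 28 with a gene on the opposite strand and 8 with one on the same strand. The library kit keeps strand, but the strand setting of the counting is not given in the sources used here, so opposite-strand reads may be counted too. Among called members, Mrpl9 shares 157 opposite-strand exon bases with Oaz3, Mrpl12 shares 200 with Gm16755, Mrpl13 shares 330 with Mtbp, Mrpl10 shares 240 with Gm11574 and Mrps26 shares 8 with 4930473A02Rik. Mrps6, named for its overlap after its values were seen, shares same-strand exon bases with Gm49711 and with Slc5a3, the sodium-coupled inositol transporter. The larger of these overlaps was 305 bases, and which of the genes it belongs to was not recorded. Slc5a3 had 26.8, 22.9 and 25.7 FPKM with dexamethasone plus THSG, 29.0, 24.1 and 27.4 with dexamethasone, and 10.0, 8.77 and 11.7 with vehicle, a log2 fold change of dexamethasone over vehicle of 1.40 (adjusted p = 1.07e-06, limma). Mrps6 had 60.7, 58.1 and 54.9 FPKM with dexamethasone plus THSG, 60.4, 48.2 and 53.2 with dexamethasone, and 56.1, 45.8 and 46.6 with vehicle. Its groups overlapped, and the log2 fold change of dexamethasone over vehicle was 0.12 (adjusted p = 0.323, limma).

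Subunits whose symbols the rule does not take were also in the table, 5 of 5. Of these, 3 were called lower with dexamethasone against vehicle, where 20.9% of all rows were. Gadd45gip1, a large-subunit protein, averaged 5.59 FPKM with dexamethasone plus THSG, 5.08 with dexamethasone and 7.56 with vehicle. Its log2 fold change of dexamethasone over vehicle was -0.58 (adjusted p = 0.0091, limma). The small-subunit genes Chchd1 and Aurkaip1 stood at -0.35 and -0.26 (adjusted p = 0.0192 and 0.0122, limma).

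Among genes that make or serve the ribosome, the called shares of the lists below were at or under those of all rows (20.9% lower, 12.7% higher and 33.6% in either direction), except that 15.4% of the mitochondrial mRNAs were called higher. Of 23 assembly factors in the table, 1 was called lower with dexamethasone, the RNA helicase Dhx30 at -0.23 (adjusted p = 0.0458, limma). Of 18 genes listed as mitochondrial translation factors, 1 was called higher, Mss51 at 0.36 (adjusted p = 0.00117, limma). The yeast protein of that name controls translation of a cytochrome oxidase mRNA, and these data do not show such a role in the mouse. Of 17 mitochondrial aminoacyl-tRNA synthetases, 0 were called by limma. Of 25 genes that transcribe mitochondrial DNA, handle its RNA or copy the DNA, 4 were called lower (16%). They were Slirp, Rexo2, Fastk and Polg, of which Polg is the DNA polymerase; Fastk is named to complete the count and not by the naming rule. The largest fall was that of Slirp, which stabilises mitochondrial mRNAs, with a mean of 19.9 FPKM with dexamethasone plus THSG, 18.9 with dexamethasone and 27.2 with vehicle. Its log2 fold change of dexamethasone over vehicle was -0.52 (adjusted p = 0.00142, limma).

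Of 25 genes of mitochondrial protein import, 5 were called lower with dexamethasone against vehicle (20%). Tomm5, Tomm7 and Timm22, parts of the outer and inner membrane translocases, stood at -0.25, -0.31 and -0.27 (adjusted p = 0.0117, 0.0172 and 0.015, limma). Of 13 listed regulators of mitochondrial gene expression, 12 were in the table, and Ppargc1a was not under that symbol. Among the 12, 1 was called lower, the coactivator Pprc1 at -0.20 (adjusted p = 0.0398, limma). Of the 13 mRNAs of mitochondrial DNA that the ribosome translates, 2 were called higher (mt-Nd4 at 0.37 and mt-Atp6 at 0.29, adjusted p = 0.00995 and 0.0388, limma), and the median of the 13 was 0.20. Dexamethasone library 3 was highest in their share, as given above. Without that library, 11 members were called lower and 1 higher.

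**Figure D5:**
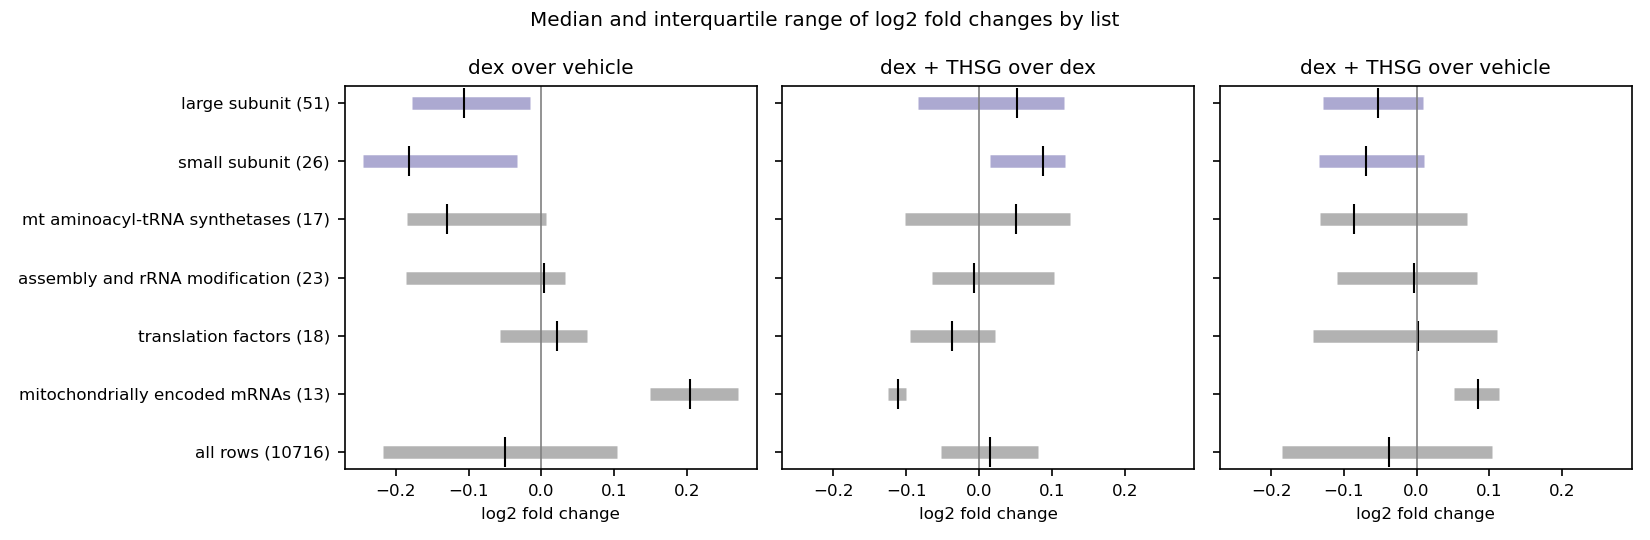
Median log2 fold change (tick) and interquartile range (bar) for the large and small subunits, related lists and all rows, in each comparison, with the number of genes in brackets. With dexamethasone over vehicle the medians are -0.11 for the large and -0.18 for the small subunit, and that of the 13 mitochondrial mRNAs is 0.20.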

How the data were processed

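Per the labels, RNA was taken with a Hybrid-R kit and libraries were made with a stranded mRNA kit, and per the submitters' processing notes STAR 2.7.10a, featureCounts and build GRCm39 were used. The authors deposited 1 table of 10716 rows that is named as counts. Its values are fractional and none is below 1, so they were taken as FPKM, filtered by the authors; the deposited FPKM give no read depth, and precision is known only from the spread between libraries. A count test was planned, but the values are not counts.

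Values were analysed as log2(FPKM + 0.1), which understates the change of low genes, with limma 3.58.1 in R 4.3.3 (1 mean per group, 9 libraries in 1 fit, variances moderated with an intensity trend, two-sided). P-values were adjusted by Benjamini-Hochberg over all 10716 rows, with a threshold of 0.05, and intervals are 95%. Lengths, GC content and neighbours came from GENCODE M21 (GRCm38), which matched 10670 rows. Promoters came from RefSeq.

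The members and lists were chosen with earlier results of these data known. Named with values were the members with the smallest p per subunit and with the largest changes for dexamethasone, those with the smallest p for THSG, the highest and lowest levels, and 15 fixed by role; related lists name up to 3 genes with the smallest p. Other members are marked, and neighbours are named for their position. The cell line label counts upward from sample to sample, and the titles, which all name C2C12, were followed. Alternatives covered pseudocounts, scaling, a minimum mean of 5 FPKM, the fit, a replicate block, a correction for GC content and length, and leaving out each library.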

Additional observations from a re-analysis of the deposited data

How the results depend on the processing

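The sign of the members' median held in all 17 alternatives of each comparison, and 0 members were called for dexamethasone plus THSG against dexamethasone in any of them. Leaving out 1 library at a time gave 6 to 17 members lower and 1 to 3 higher for dexamethasone against vehicle (12 and 1 as reported), and 3 to 9 lower and 0 to 2 higher for dexamethasone plus THSG against vehicle (7 and 0). The medians then ran from -0.155 to -0.0639, from 0.0274 to 0.0882 for dexamethasone plus THSG against dexamethasone, and from -0.0962 to -0.0363 for dexamethasone plus THSG against vehicle. Members called higher with dexamethasone numbered 5 with median-ratio scaling, 6 with quantile normalization, 2 with equal sums, 4 with the GC content and length correction and 2 with that correction and a replicate block. For dexamethasone plus THSG against vehicle, 1 member was called higher under each of median-ratio scaling, quantile normalization, the replicate block, the GC content and length correction, and that correction with the block. Members below 0 with dexamethasone numbered 53 of 82 under median-ratio scaling, where 50.4% of all rows were below 0. The replicate block gave 10 members lower and 1 higher with dexamethasone, and 6 lower and 1 higher with dexamethasone plus THSG against vehicle. Same-numbered libraries had correlations of -0.0862 to 0.107, and a library matched its own number best in 4 of 18 checks, so the numbers were not taken as pairs. The causes of these shifts were not tested. Called shares of all rows are not given for the alternatives, so their counts of called members have no background beside them. Mrpl52, Mrpl28, Mrpl34, Mrps15, Mrps2 and Mrpl1 were called for dexamethasone in all 17 alternatives.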
